A study of Mus musculus with 16 samples.

Results

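The genes described here are 43 genes of the lysosome and of the vacuolar ATPase (V-ATPase), the proton pump that acidifies it. They were chosen by name and function, and all 43 were found by Ensembl identifier among the 52636 genes counted in mouse dorsal root ganglia (DRGs). Of these, 29 encode lysosomal enzymes, membrane proteins and their transcription factors, and 14 encode V-ATPase subunits. All 43 members passed the filter on low counts, as did 21371 genes in all.

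Bulk RNA-seq was done on L3-6 DRGs of 16 male C57BL/6J mice, aged 3 to 4 months, in 4 groups of 4 mice with 1 mouse per library. Mice of the SNI groups had a spared nerve injury, in which the common peroneal and sural nerves of the left hindleg were ligated and cut while the tibial nerve was left, and mice of the Sham groups had surgery without this injury. From 4 weeks after surgery (4 months, according to one passage of the methods), mice were injected 2 times a day for 3 weeks with saline (Sham-Saline and SNI-Saline) or with the tricyclic antidepressant desipramine, abbreviated DMI, at 15 mg/kg (Sham-DMI and SNI-DMI). The mice carried no transgene that the sources used here name, the side from which ganglia were taken is not stated, and DRGs at these levels hold the cell bodies of both cut and intact axons.

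Between 41194238 and 73920332 reads per library were counted on genes, and no member had fewer than 332 reads in any library. The labels name the spinal cord as tissue and DRG as cell type. The 13 sensory neuron markers summed to between 15900 and 20500 CPM (counts scaled to a common normalized library size) in every library, whereas 6 markers of spinal cord glia summed to between 9.70 and 19.7 CPM, with 4 of the 6 under 1 CPM. The library numbers in the labels run from 17 to 24 for the DMI groups, 33 to 36 for SNI-Saline and 37 to 40 for Sham-Saline. Any effect of that order therefore cannot be told apart from the effects of DMI and of injury.

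Lysosomes receive material from endocytosis, phagocytosis and autophagy, and break it down with acid hydrolases. The V-ATPase supplies the acid: its membrane-bound V0 sector forms the proton path, and its cytosolic V1 sector hydrolyses ATP to drive it. Many of these genes are targets of the transcription factors TFEB and TFE3, which bind a short palindrome, the CLEAR element, built around the letters CACGTG. Sensory neurons depend on lysosomes carried along their long axons, and macrophages, which gather in DRGs after nerve injury, are rich in lysosomal proteases. Desipramine is a cationic amphiphilic drug, a class of weak bases that collects in lysosomes.

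Promoter windows were available for 37 of the 43 members (RefSeq, GRCm38.p6, from 250 bases before to 50 bases after the start of transcription). The letters CACGTG, which read the same on both strands, were present in the windows of 14 of these 37 genes (37.8%), against 8.09% of 27025 genes. The longer palindrome TCACGTGA, which contains CACGTG, was present in 8 of 37 (21.6%), against 1.12% of all genes. The full element, in which a G precedes and a C follows the longer palindrome, was present in 1 of 37 (2.70%), Cln3, against 0.37% of all genes. Stretches of 7 of these promoters are shown, each with the palindrome. Ctsd, Ctsa, Atp6v0b and Atp6v0d1 recur in the results. Lamp1 and Mcoln1 hold several copies and were called in no comparison of the main fit. Cln3 is the gene with the full element. Capitals mark CACGTG, and each stretch reads 5′ to 3′ on the strand of its gene.
Lamp1 (chr8:13159071-13159160, plus strand): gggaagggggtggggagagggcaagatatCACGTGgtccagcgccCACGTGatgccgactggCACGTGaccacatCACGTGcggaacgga
Ctsd (chr7:142387868-142387957, minus strand): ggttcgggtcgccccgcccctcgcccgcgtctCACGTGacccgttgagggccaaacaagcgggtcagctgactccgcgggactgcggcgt
Ctsa (chr2:164833703-164833787, plus strand): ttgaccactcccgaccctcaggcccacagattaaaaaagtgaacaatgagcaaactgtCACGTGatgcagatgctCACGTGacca
Atp6v0b (chr4:117887330-117887419, minus strand): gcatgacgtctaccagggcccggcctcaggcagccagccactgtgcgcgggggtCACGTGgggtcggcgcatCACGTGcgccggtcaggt
Atp6v0d1 (chr8:105566055-105566144, minus strand): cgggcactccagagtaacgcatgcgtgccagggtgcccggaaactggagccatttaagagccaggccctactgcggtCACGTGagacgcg
Mcoln1 (chr8:3500409-3500498, plus strand): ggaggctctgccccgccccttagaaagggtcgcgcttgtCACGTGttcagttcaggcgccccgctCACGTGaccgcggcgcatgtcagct
Cln3 (chr7:126583317-126583406, minus strand): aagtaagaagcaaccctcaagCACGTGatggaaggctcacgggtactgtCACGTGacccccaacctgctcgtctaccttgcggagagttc
Lamp1, a major glycoprotein of the lysosomal membrane, had 4 copies within 90 bases of its start. A match is a description of these letters and was not tested for binding.

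The members were expressed well above the typical gene in these ganglia. Over all 16 libraries their median level was 29.0 CPM per kilobase of exon, against 2.75 for all genes tested. In the Sham-Saline mice Psap, the precursor of the saposins that help to degrade sphingolipids, had the highest level of the 43 at 465 CPM per kilobase. It was followed by the proteases cathepsin B (Ctsb, 220) and cathepsin D (Ctsd, 175), by Lamp1 (133) and by the V0 subunit Atp6v0d1 (131). The lowest levels were those of the protease Ctsh (2.06), the transcription factor Tfeb (2.06) and the beta-mannosidase Manba (1.38).

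After SNI 5 of the 7 proteases among the members and part of the V-ATPase genes were higher. In SNI-Saline versus Sham-Saline 12 of the 43 members rose and none fell at an adjusted p under 0.1 (edgeR quasi-likelihood test), where 5.85% of all genes rose and 6.18% fell. The 12 were 5 proteases (Ctsz, Ctsa, Ctsd, Ctsl and Ctsb), the glucuronidase Gusb, the sphingomyelinase Smpd1, the V0 subunits Atp6v0b and Atp6v0e, the accessory subunit Atp6ap1 and the V1 subunits Atp6v1c1 and Atp6v1e1. The median change over the 43 members was 7.29%, a log2 fold change of 0.10, against -0.0006 over all genes. In 13 members all 4 SNI-Saline mice lay above all 4 Sham-Saline mice, and in none all 4 lay below, where 7.67% and 7.74% of all genes did so. The count of 12 fell to 6 once trends on GC content and length were removed from each library (3.94% of all genes called). Calls were then lost for Ctsd, Gusb, Smpd1, Atp6v0b, Atp6v0e, Atp6ap1 and Atp6v1e1, and Atp6v1h was gained. The count was 2 with the share of reads on no annotated feature as a covariate (1.02% of all genes). It was between 3 and 6 when Sham-Saline mouse 3 or 4, or SNI-Saline mouse 1, 2 or 4, was left out, when 3.15% to 7.46% of all genes were called.

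In uninjured mice 18 of the 43 members were higher with DMI. In Sham-DMI versus Sham-Saline 18 members rose and 1, Lamp2, fell, where 11.6% of all genes rose and 11.9% fell. The 18 comprised the same 5 proteases, 2 of 9 glycosidases, Smpd1, 4 of 5 V0 subunits, Atp6ap1 and 5 of 7 V1 subunits. The median change of the members was 6.68%, a log2 fold change of 0.09, against -0.02 over all genes, and it was 0.15 for the 14 V-ATPase genes alone. No overlap between the groups was seen for 15 members that were higher and 1 that was lower, where 8.62% and 8.51% of all genes had none. With the share of reads on no annotated feature as a covariate, 6 members were higher and none lower, where 2.61% and 2.35% of all genes were.

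In injured mice 5 of the 43 members were called with DMI, where 2.93% of all genes were. In SNI-DMI versus SNI-Saline 3 members rose (Hexa, Grn and Atp6v0b) and 2 fell (Lamp2 and Atp6v1a), where 1.32% of all genes rose and 1.61% fell. The median change of the members was 3.57%, a log2 fold change of 0.05, against -0.005 over all genes. No overlap was seen for 6 members that were higher and 5 that were lower, where 7.33% and 5.97% of all genes had none. None of the 5 calls was kept once GC content and length trends were removed, when 0.0281% of all genes were called. The log2 fold changes of Grn (0.28, adjusted p = 0.12) and Hexa (0.19, adjusted p = 0.126) stayed closer to those as counted than that of Lamp2 (-0.09, adjusted p = 0.361). None was kept either when SNI-Saline mouse 1, 3 or 4, or SNI-DMI mouse 1, 2 or 3, was left out, when 0% of all genes were called in 5 of these 6 fits and 0.175% without SNI-Saline mouse 4, so that this loss held for all genes alike. There were 3 members called when Sham-Saline mouse 2 or 4, or SNI-DMI mouse 4, was left out. In that order, 1.11%, 1.04% and 2.91% of all genes were then called. Of the 19 members called under sham and the 5 called under SNI, which are comparisons with no library in common, 3 were shared: Atp6v0b, Hexa and Lamp2. Of all genes 23.4% and 2.93% were called in these comparisons, and the share called in both was not counted. With GC content and length trends removed, Lamp2 was at 0.08 under sham and -0.09 under SNI.

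**Figure D1:**
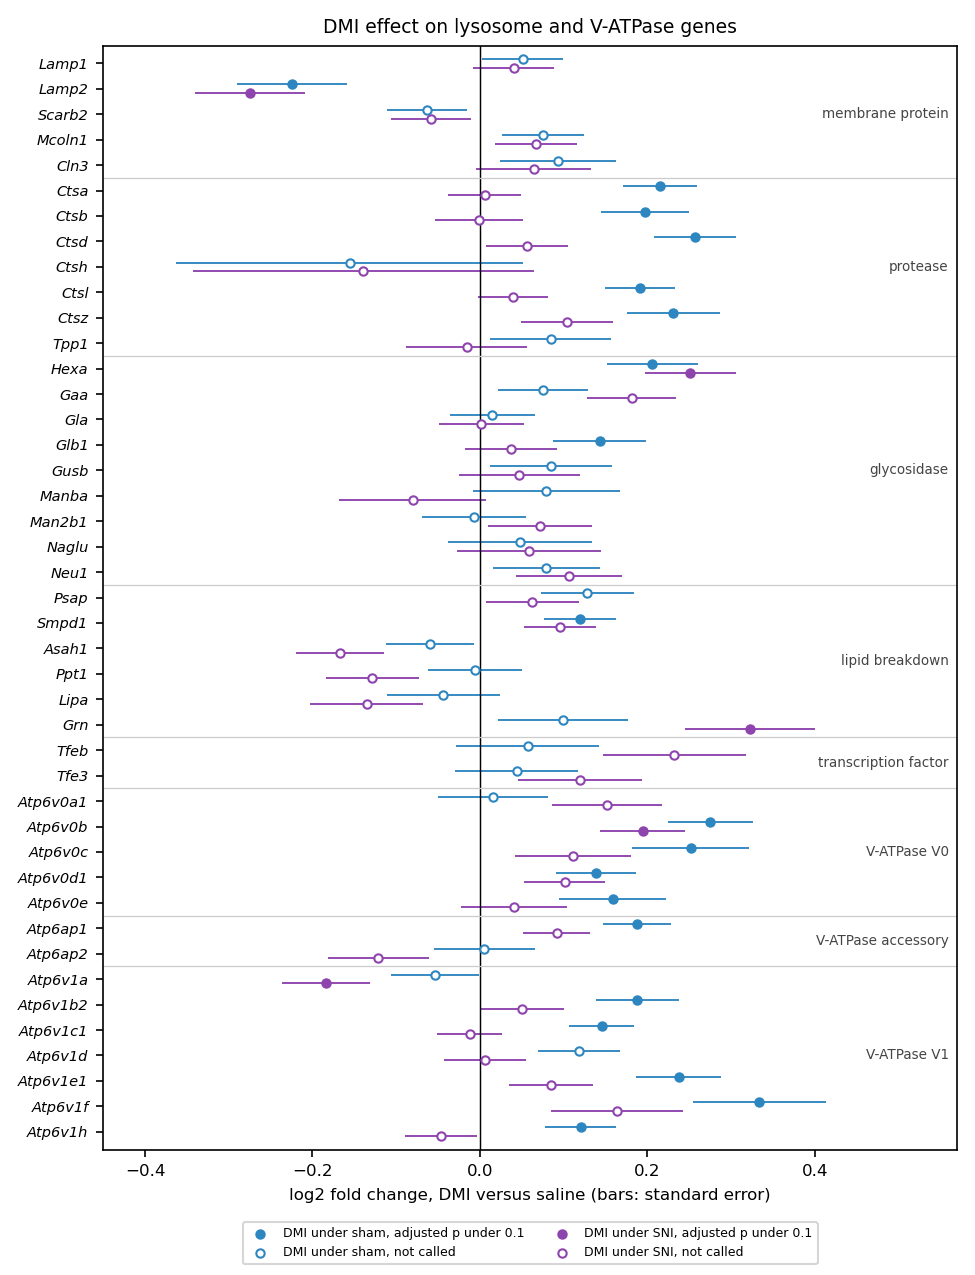
Log2 fold change (DMI versus saline) of each of the 43 members under sham (blue) and under SNI (purple), grouped by role, with bars for the standard error of the fit over 16 libraries and filled points for an adjusted p under 0.1. Under sham 18 filled points lie to the right of 0 and 1 to the left, and under SNI 3 lie to the right and 2 to the left.

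Averaged over sham and SNI, 19 members rose with DMI and 3 fell (Lamp2, Asah1 and Atp6v1a), where 14.8% of all genes rose and 15.8% fell. The median change was 5.98%, a log2 fold change of 0.08 against -0.01 over all genes, and 34 of the 43 estimates were above 0, as were 47.5% of those of all genes. By role, 5 of 7 proteases, 2 of 9 glycosidases, 3 of 6 genes of lipid breakdown, 1 of 2 transcription factors, 3 of 5 V0 subunits, 1 of 2 accessory subunits and 4 of 7 V1 subunits rose. The 14 members with CACGTG in the promoter window changed by a median of 0.09 (log2), with 6 higher and 1 lower. The 23 members without it had a median of 0.08, with 10 higher and 1 lower.

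The difference between the DMI effects under SNI and under sham passed the threshold for no member (edgeR quasi-likelihood test with Benjamini-Hochberg adjustment), where 0% of all genes passed. With DESeq2 it passed for no member either, and for 0.0749% of all genes. At an unadjusted p under 0.05 there were 7 members (Ctsa, Ctsd, Ctsb, Ctsl, Atp6v1c1, Atp6v1e1 and Atp6v1h), each with the smaller DMI effect under SNI, where 7.92% of all genes were at that level. The median difference over the members was -0.09 on the log2 scale, and it was above 0 in 11 of 43 members against 51.3% of all genes, in 0 of 7 V1 subunits and in 1 of 7 proteases. The 4 smallest p-values belonged to Ctsa (log2 difference -0.21 ± 0.06 (SE)), Ctsd (-0.20 ± 0.07), Atp6v1c1 (-0.16 ± 0.05) and Atp6v1h (-0.17 ± 0.06), each with an adjusted p of 0.619. In SNI-DMI versus Sham-DMI, 1 member (Grn) rose and none fell, where 0.374% and 0.0281% of all genes did so, and the median change was 1.81%. With GC content and length trends removed the call of Grn was lost (0.25, adjusted p = 0.118), and the 1 member called was Atp6v1a, which fell (-0.20, adjusted p = 0.0804). No overlap was seen for 5 members that were higher and 0 that were lower, where 2.89% and 2.15% of all genes had none.

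The level of the list as a whole was lowest in the Sham-Saline mice. Relative to the Sham-Saline mean, the median log2 CPM of the 43 members lay between -0.026 and 0.037 in Sham-Saline mice, between 0.054 and 0.13 in SNI-Saline mice, between 0.082 and 0.17 in Sham-DMI mice and between 0.15 and 0.17 in SNI-DMI mice. The Sham-Saline values overlapped with those of no other group, the SNI-DMI values lay above those of SNI-Saline, and Sham-DMI overlapped with both of these. The share of reads on no annotated feature ran the other way, from 8.67% to 9.44% in Sham-Saline mice, 7.73% to 9.14% in SNI-Saline mice, 7.10% to 8.79% in Sham-DMI mice and 7.42% to 8.38% in SNI-DMI mice. The SNI-Saline and Sham-DMI mice with the highest such share, replicate 3 at 9.14% and replicate 2 at 8.79%, were also those with the lowest list median of their groups, whereas SNI-DMI replicate 3, highest of its group at 8.38%, was not. In the Sham-Saline group the order was the opposite, since replicate 1 had both the highest share (9.44%) and the highest list median. The part of this share in the results was examined only by the fit with it as a covariate, given above and in the closing section. Because the share differed between groups, that fit cannot fully separate its part from the effects of injury and DMI.

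**Figure D2:**
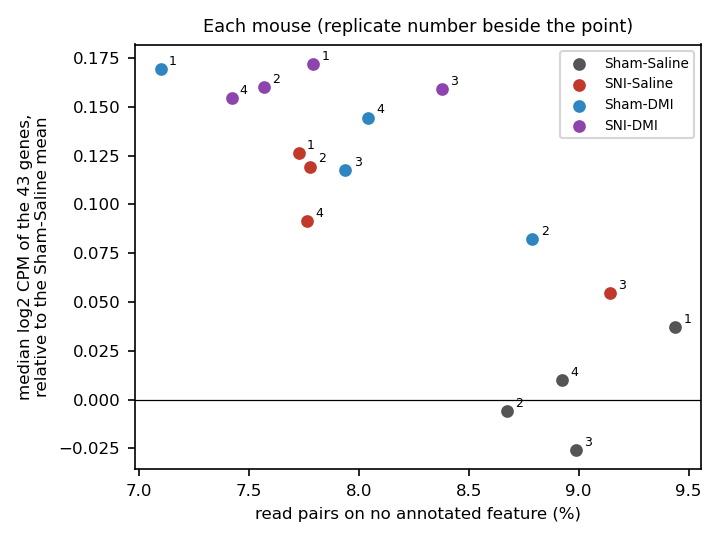
Each point is 1 mouse, with the share of read pairs on no annotated feature (%) on the x axis and the median log2 CPM of the 43 members relative to the Sham-Saline mean on the y axis, coloured by group and numbered by replicate. The Sham-Saline mice lie at the lower right (8.67% to 9.44%, -0.026 to 0.037) and the SNI-DMI mice at the top left (7.42% to 8.38%, 0.15 to 0.17).

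Among the proteases, cathepsin Z (Ctsz), a carboxypeptidase abundant in macrophages, had the smallest p after injury. It was at 70.2, 77.6, 72.3 and 74.7 CPM in the 4 Sham-Saline mice and at 89.5, 99.4, 94.4 and 86.5 CPM in the 4 SNI-Saline mice. With DMI it was at 85.9, 80.2, 88.3 and 91.8 CPM under sham and at 106, 94.6, 97.4 and 99.5 CPM under SNI. The SNI-Saline and the Sham-DMI mice all lay above the Sham-Saline mice, and the SNI-DMI mice overlapped with SNI-Saline but not with Sham-DMI. The log2 fold change was 0.33 ± 0.06 (SE, adjusted p = 0.00599) after injury, 0.23 ± 0.06 (adjusted p = 0.00981) with DMI under sham and 0.20 ± 0.06 (adjusted p = 0.167) for injury under DMI.

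Cathepsin D (Ctsd), the main aspartic protease of lysosomes, stood at 421, 418, 404 and 399 CPM in Sham-Saline mice and 497, 489, 484 and 452 CPM in SNI-Saline mice. Its values were 485, 475, 524 and 478 CPM in Sham-DMI mice and 530, 473, 486 and 509 CPM in SNI-DMI mice. Every mouse of the 3 other groups was above every Sham-Saline mouse, and these 3 groups overlapped with each other. Fitted by edgeR, the log2 change was 0.23 ± 0.05 (SE, adjusted p = 0.018) after injury and 0.26 ± 0.05 (adjusted p = 0.00327) with DMI under sham. With GC content and length trends removed, the injury change was 0.13 ± 0.05 with an adjusted p of 0.199.

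Cathepsin A (Ctsa), a carboxypeptidase that also protects beta-galactosidase and neuraminidase from degradation, showed the same order of groups. Its CPM were 126, 123, 122 and 118 in Sham-Saline mice, 139, 144, 144 and 139 in SNI-Saline mice, 141, 131, 145 and 151 in Sham-DMI mice, and 144, 138, 143 and 143 in SNI-DMI mice. Sham-Saline lay below the other groups without overlap. Exons of Ctsa share 819 bases with Neurl2 and Pltp on the opposite strand, those of Ctsd share 808 bases with Gm49369 on the same strand, and those of Ctsl share 2137 bases with Gm47123 and Gm49230, so that reads there are uncertain. On the log2 scale the change was 0.21 ± 0.04 (SE, adjusted p = 0.0169) after injury and 0.22 ± 0.04 (adjusted p = 0.00461) with DMI under sham.

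The cysteine proteases cathepsin L and cathepsin B rose in the same comparisons. Cathepsin L (Ctsl) was at 635, 617, 591 and 631 CPM in Sham-Saline mice, 688, 679, 703 and 696 in SNI-Saline mice, 718, 689, 734 and 684 in Sham-DMI mice, and 706, 702, 738 and 698 in SNI-DMI mice. The Sham-Saline mice again had the lowest values without overlap. The log2 fold change was 0.16 ± 0.04 (SE, adjusted p = 0.0346) after injury and 0.19 ± 0.04 (adjusted p = 0.00609) with DMI under sham. Cathepsin B (Ctsb) was at 1450, 1310, 1290 and 1280 CPM in Sham-Saline mice, 1580, 1490, 1450 and 1510 in SNI-Saline mice, 1490, 1460, 1660 and 1490 in Sham-DMI mice, and 1560, 1460, 1500 and 1500 in SNI-DMI mice. Sham-Saline lay below the other 3 groups, with its highest mouse within rounding of the lowest SNI-Saline mouse, and the other 3 groups overlapped with each other. The injury change of Ctsb was 0.18 ± 0.05 (SE, adjusted p = 0.0532), a call that was lost when Sham-Saline mouse 3 or 4, or SNI-Saline mouse 1, 2 or 4, was left out. Exons of Ctsb share 774 bases with Fdft1 on the opposite strand, and whether counting used strand is not stated, so reads there cannot be assigned with certainty. The other proteases did not pass the test in any comparison: Tpp1, a tripeptidyl peptidase, and Ctsh, which had the largest injury estimate of the list but also the largest error (0.51 ± 0.20, adjusted p = 0.143; named after its values were seen).

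Markers of macrophages moved with the proteases after injury but not with DMI. Summed over 15 genes they were at 176 to 205 CPM in Sham-Saline mice and 226 to 410 CPM in SNI-Saline mice, and 9 of the 15 rose after injury, where 5.85% of all genes did. They were at 134 to 194 CPM in Sham-DMI mice and 179 to 358 CPM in SNI-DMI mice, and none rose while 3 fell (Mrc1, Cd163 and Itgam) in the DMI average, where 15.8% of all genes fell. None of the 15 was at 0 in these groups. In bulk tissue, fewer cells of a type and less RNA per cell cannot be told apart, and the part of macrophages in the protease changes was not tested.

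Hexa, the alpha subunit of beta-hexosaminidase, which degrades gangliosides, led the glycosidases. It was at 63.1, 65.3, 63.6 and 71.0 CPM in Sham-Saline mice and 67.5, 76.8, 70.9 and 70.0 CPM in SNI-Saline mice. With DMI it was at 80.8, 69.7, 74.5 and 78.6 CPM under sham and 84.6, 84.3, 86.9 and 83.7 CPM under SNI. The SNI-DMI mice were above all other mice, while Sham-DMI overlapped with Sham-Saline by 1 mouse each. The log2 fold change with DMI was 0.25 ± 0.05 under SNI (SE, adjusted p = 0.063), 0.21 ± 0.05 under sham (adjusted p = 0.0164) and 0.23 ± 0.04 on average (adjusted p = 0.000844). Injury under DMI gave 0.16 ± 0.05 (adjusted p = 0.253). Of the other 8 glycosidases, the alpha-glucosidase Gaa rose in the DMI average (0.13 ± 0.04, adjusted p = 0.0207), beta-galactosidase Glb1 rose with DMI under sham (0.14 ± 0.06, adjusted p = 0.0868) and Gusb rose after injury (0.21 ± 0.07, adjusted p = 0.0964). Gla, Manba, Man2b1, Naglu and Neu1 passed no test.

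Among the genes of lipid breakdown, progranulin (Grn), a secreted and lysosomal glycoprotein needed for normal lysosomal lipid handling, was highest in SNI-DMI mice. It was at 78.9, 81.3, 87.0 and 87.6 CPM in Sham-Saline mice, 88.2, 102, 78.8 and 94.8 in SNI-Saline mice, 102, 80.4, 89.0 and 87.4 in Sham-DMI mice, and 110, 109, 112 and 124 in SNI-DMI mice. All 4 SNI-DMI mice lay above the other 12, and the other 3 groups overlapped. Fitted by edgeR, the log2 change was 0.32 ± 0.08 with DMI under SNI (SE, adjusted p = 0.0693) and 0.34 ± 0.08 for injury under DMI (adjusted p = 0.0881). With DMI under sham it was 0.10 ± 0.08. Neither call was kept when SNI-Saline mouse 1 or 4, or SNI-DMI mouse 1 or 4, was left out. Of 16 fits with 1 library left out, 9 kept the call with DMI under SNI and 6 kept that for injury under DMI. In the DMI average Psap (0.10 ± 0.04, adjusted p = 0.0886) and Smpd1, acid sphingomyelinase (0.11 ± 0.03, adjusted p = 0.0161), also rose. Asah1, acid ceramidase, fell (-0.11 ± 0.04, adjusted p = 0.0349). With GC content and length trends removed, these calls of Psap, Smpd1 and Asah1 were not kept. Asah1 was then at 0.03 ± 0.03 in the DMI average (adjusted p = 0.475). Under sham it was then called higher with DMI (0.10 ± 0.04, adjusted p = 0.0986). The thioesterase Ppt1 and the acid lipase Lipa passed no test.

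Lamp2, a membrane glycoprotein that takes part in the fusion of autophagosomes with lysosomes, was the member that fell most with DMI. It was at 327, 294, 297 and 310 CPM in Sham-Saline mice and 294, 278, 305 and 286 CPM in SNI-Saline mice. With DMI it was at 229, 282, 280 and 259 CPM under sham and 241, 216, 249 and 256 CPM under SNI. The DMI mice lay below the saline mice of the same surgery in both cases. On the log2 scale the change was -0.23 ± 0.07 under sham (SE, adjusted p = 0.0263), -0.27 ± 0.07 under SNI (adjusted p = 0.0693) and -0.25 ± 0.05 on average (adjusted p = 0.00148). Lamp2 has the lowest GC content of the 43 members, 40.92% of its exon bases. Once the GC content and length trends were removed, its average change was -0.0049 ± 0.03 with an adjusted p of 0.936. Under sham its change was then above 0, at 0.08 ± 0.04 (adjusted p = 0.233). The other membrane proteins, Lamp1, the enzyme receptor Scarb2, the calcium channel Mcoln1 and Cln3, passed no test, with log2 fold changes between -0.06 and 0.08 in the DMI average.

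Of the transcription factors, Tfeb rose in the DMI average by 0.14 ± 0.06 (SE, adjusted p = 0.0931), and Tfe3 did not pass any test. The mean level of Tfeb was 11.7 ± 1.02 CPM in Sham-Saline mice, 11.4 ± 1.10 in SNI-Saline mice, 12.2 ± 0.645 in Sham-DMI mice and 13.3 ± 0.891 in SNI-DMI mice (SD, n = 4). These factors are controlled largely by phosphorylation and nuclear entry, which mRNA levels do not measure.

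**Figure D3:**
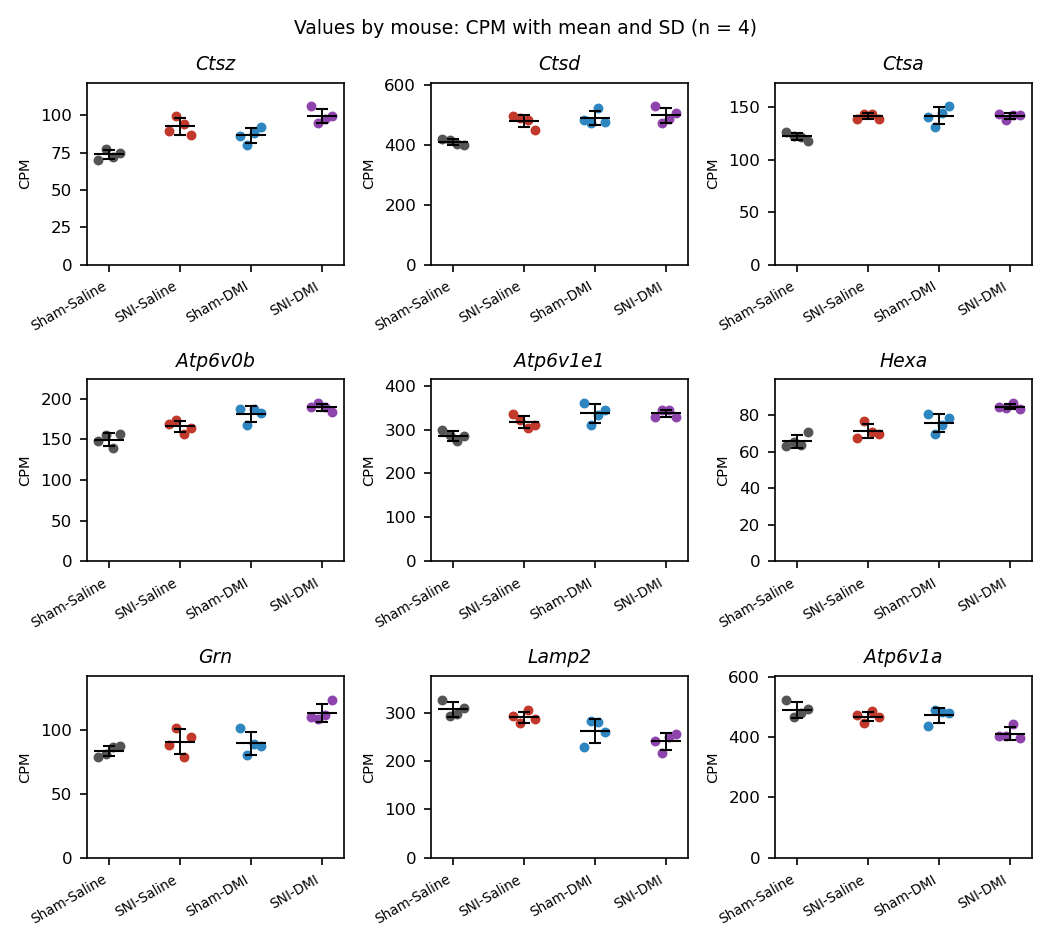
CPM of 9 members in each mouse, with the mean and SD of the 4 mice of each group as horizontal lines and bars, on axes that start at 0. Ctsz, Ctsd, Ctsa and Atp6v1e1 were lowest in Sham-Saline mice, Hexa and Grn were highest in SNI-DMI mice, and Lamp2 and Atp6v1a were lowest in SNI-DMI mice by group mean.

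Of the V0 sector, Atp6v0b, a subunit of the proton-carrying ring, had the smallest p of the list for DMI under sham and on average. It was at 148, 155, 139 and 157 CPM in Sham-Saline mice and 169, 174, 157 and 164 CPM in SNI-Saline mice. With DMI it was at 188, 168, 188 and 182 CPM under sham and 190, 195, 190 and 184 CPM under SNI. The DMI mice were above the saline mice of the same surgery without overlap. The log2 fold change was 0.28 ± 0.05 under sham (SE, adjusted p = 0.00292), 0.19 ± 0.05 under SNI (adjusted p = 0.0833), 0.23 ± 0.04 on average (adjusted p = 0.000583) and 0.15 ± 0.05 after injury (adjusted p = 0.0926). With GC content and length trends removed, the injury change was 0.05 ± 0.05 (adjusted p = 0.651). Exons of Atp6v0b share 243 bases with Gm12841 on the opposite strand. The other ring subunit, Atp6v0c, rose with DMI under sham (0.25 ± 0.07, adjusted p = 0.0201), as did Atp6v0d1 (0.14 ± 0.05, adjusted p = 0.0553) and Atp6v0e (0.16 ± 0.06, adjusted p = 0.0994). Atp6v0a1 passed no test.

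Atp6ap1, an accessory subunit that aids assembly of the pump, was at 335, 319, 313 and 326 CPM in Sham-Saline mice and 368, 363, 340 and 357 CPM in SNI-Saline mice. Its values were 375, 355, 372 and 370 CPM in Sham-DMI mice and 377, 388, 380 and 377 CPM in SNI-DMI mice. Sham-Saline lay lowest without overlap, and SNI-DMI lay above SNI-Saline without overlap. Fitted by edgeR, the log2 change was 0.19 ± 0.04 with DMI under sham (SE, adjusted p = 0.00568) and 0.14 ± 0.03 on average (adjusted p = 0.00252). After injury the mean rose by 10.6% (adjusted p = 0.0447), a call not kept when Sham-Saline mouse 3, or SNI-Saline mouse 1 or 2, was left out. Atp6ap2, the other accessory subunit, passed no test.

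The V1 sector held members of both directions. Atp6v1e1, part of the stalk between the sectors, was at 300, 287, 273 and 285 CPM in Sham-Saline mice, 336, 322, 304 and 310 in SNI-Saline mice, 361, 310, 333 and 345 in Sham-DMI mice, and 330, 345, 344 and 329 in SNI-DMI mice. Sham-Saline lay below the other 3 groups, which overlapped. On the log2 scale the change was 0.24 ± 0.05 with DMI under sham (SE, adjusted p = 0.00554), 0.16 ± 0.04 on average (adjusted p = 0.00409) and 0.15 ± 0.05 after injury (adjusted p = 0.078).

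Atp6v1a, the catalytic subunit that binds ATP, went the other way in SNI-DMI mice. It was at 524, 465, 478 and 493 CPM in Sham-Saline mice, 473, 446, 485 and 467 in SNI-Saline mice, 436, 490, 484 and 478 in Sham-DMI mice, and 402, 402, 443 and 398 in SNI-DMI mice. All SNI-DMI mice lay below the SNI-Saline mice, whereas the highest SNI-DMI mouse overlapped with the lowest Sham-DMI mouse. The log2 fold change was -0.18 ± 0.05 with DMI under SNI (SE, adjusted p = 0.0979) and -0.20 ± 0.05 for injury under DMI (adjusted p = 0.153). With GC content and length trends removed, the first was -0.10 ± 0.04 (adjusted p = 0.336) and the second -0.20 ± 0.04 (adjusted p = 0.0804).

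The regulatory subunits Atp6v1c1 and Atp6v1h had small changes in tight groups. Atp6v1c1 was at 178, 170, 166 and 174 CPM in Sham-Saline mice, 193, 181, 182 and 186 in SNI-Saline mice, 193, 186, 188 and 193 in Sham-DMI mice, and 181, 185, 188 and 182 in SNI-DMI mice. Sham-Saline lay lowest, and the DMI and saline mice overlapped under SNI. Atp6v1h was at 208, 205, 191 and 203 CPM in Sham-Saline mice, 223, 215, 208 and 215 in SNI-Saline mice, 210, 218, 225 and 224 in Sham-DMI mice, and 201, 204, 212 and 216 in SNI-DMI mice. For this gene Sham-DMI lay above Sham-Saline, and the SNI groups overlapped. With DMI under sham the log2 fold change was 0.15 ± 0.04 (SE, adjusted p = 0.0172) for Atp6v1c1 and 0.12 ± 0.04 (adjusted p = 0.0611) for Atp6v1h. Atp6v1f, the smallest of the V1 genes by exon length, had the largest log2 fold change of the list under sham (0.33 ± 0.08, adjusted p = 0.00951), and Atp6v1b2, the other ATP-binding subunit, rose by 0.19 ± 0.05 (adjusted p = 0.0159). Atp6v1d passed no test. In all, 26 members were called in at least 1 comparison of the main fit, without removal of trends, and 17 in none.

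The DMI changes of the members varied with the base composition of their transcripts. Across the 43 members, Spearman's rho between the GC content and the log2 fold change was 0.68 in the DMI average and 0.79 with DMI under SNI, where it was 0.40 and 0.39 across all genes. With DMI under sham it was 0.39, against 0.31 across all genes. These are descriptions across genes measured in the same libraries, and genes are not independent replicates. The 3 members that fell in the DMI average, Lamp2, Asah1 and Atp6v1a, had 40.92%, 42.72% and 46.11% GC, under the members' median of 51.11%. With the GC content and length trends of each library removed, 21 members rose and none fell in the DMI average, where 16.8% of all genes rose and 5.33% fell, and 15 of the 22 members called before were still called. The members' median was then 0.09, with 39 of 43 above 0, and the median of all genes 0.03. Members gained in this way included Atp6v1h (0.25 ± 0.04, adjusted p = 0.00106) and Atp6v1d (0.24 ± 0.04, adjusted p = 0.00219), which are poor in GC. The others gained were Atp6v0e (0.16, adjusted p = 0.0153), Atp6ap2 (0.10, adjusted p = 0.0513), Mcoln1 (0.10, adjusted p = 0.0611) and Atp6v0a1 (0.13, adjusted p = 0.0896). Atp6v1d, Atp6ap2, Mcoln1 and Atp6v0a1 had passed no test as counted. Lipa had passed none either, and was gained with DMI under sham (0.15, adjusted p = 0.0491).

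**Figure D4:**
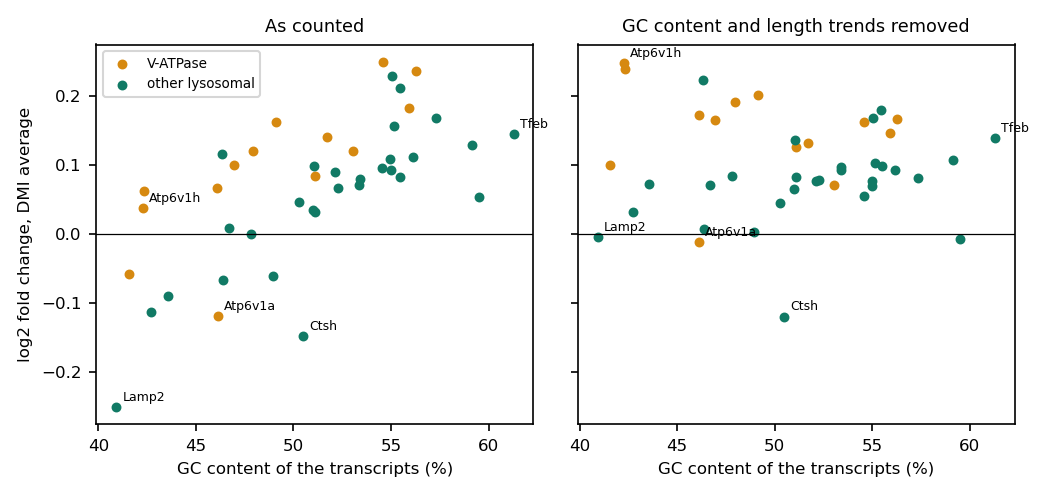
Log2 fold change in the DMI average against the GC content of the transcripts (%) for the 43 members, as counted (left) and with each library freed of its trends on GC content and length (right), with V-ATPase genes in orange and other lysosomal genes in green. As counted, Lamp2 lies lowest at 40.92% GC and -0.25, and after removal it lies near 0 and 39 of 43 points lie above 0.

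Other genes of the same pathways were taken from lists written down by function, and their counts in the DMI average are to be read against the 14.8% of all genes that rose and the 15.8% that fell. Both directions were present in each list. Of 32 other lysosomal hydrolases 6 rose and 4 fell, among them the proteases Lgmn (0.17) and Ctso (-0.32) and the sulfatase Arsb (-0.17), given as log2 fold changes. Of 24 other lysosomal membrane proteins and carriers 3 rose and 5 fell, with Cd63 at 0.21, the lysophospholipid carrier Spns1 at 0.19, Tmem192 at 0.18 and Tmem106b at -0.20. Of 15 other V-ATPase subunits and assembly factors 6 rose and 4 fell, with Rogdi at 0.29, Atp6v0e2 at 0.18, the assembly factor Vma21 at -0.27 and Dmxl1 at -0.50. Of 16 genes that sort enzymes to lysosomes 5 rose and 3 fell, with the adaptor subunits Ap1s1 at 0.21, Ap1m1 at 0.14 and Ap1g1 at -0.16 and the retromer subunit Vps35 at -0.27.

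Genes of upstream and neighbouring pathways were counted in the same way. Of 21 genes of lysosomal nutrient sensing and TFEB control 3 rose and 6 fell, with the Ragulator subunits Lamtor2 at 0.26 and Lamtor1 at 0.16, the calcineurin subunit Ppp3cb at -0.21 and Fnip1 at -0.34. Of 24 autophagy genes 6 rose and 5 fell, with Map1lc3a at 0.18, Gabarapl1 at 0.14, and the initiation genes Ulk2 at -0.19 and Rb1cc1 at -0.29. Of 24 genes of cholesterol synthesis and uptake, the targets of SREBP2, 9 rose and 2 fell, with the enzymes Mvd at 0.28, Pmvk at 0.23, Ebp at 0.22 and Fdft1 at 0.19. The medians over these 7 lists lay between -0.03 and 0.06, and that of the 43 members was 0.08. After injury 5 of the 32 other hydrolases rose and 2 fell, and 2 of the 15 other V-ATPase genes rose and 3 fell, where 5.85% and 6.18% of all genes did.

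Markers of other cell types were counted against the same shares of all genes, 5.85% higher and 6.18% lower after injury and 14.8% higher and 15.8% lower in the DMI average. Of 8 markers of injured sensory neurons 7 rose after injury and 7 in the DMI average, with summed levels of 294 to 325 CPM in Sham-Saline mice, 483 to 545 in SNI-Saline mice, 351 to 395 in Sham-DMI mice and 507 to 678 in SNI-DMI mice. The mice of Sham-DMI differed among themselves, with Sprr1a at 1.81, 12.2, 1.67 and 9.19 CPM and Atf3 at 11.4, 20.6, 13.7 and 21.8 CPM, highest in replicates 2 and 4. With DMI under sham 21 members were called without replicate 2 and 18 without replicate 4, against 19 with all mice. The shares of all genes called were 28.1%, 19.4% and 23.4% in that order. Of 13 sensory neuron markers 4 rose and 1 fell in the DMI average. All 8 neutrophil markers fell in the DMI average, with summed levels of 10.5 to 50.2 CPM in the saline mice and 3.85 to 16 in the DMI mice. Of 6 satellite glia markers 2 rose and 1 fell, of 8 Schwann cell markers none passed, and of 6 endothelial and 6 fibroblast markers 2 and 1 fell. The part of these cells in the values of the 43 members was not tested.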

How the data were processed

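Counts per gene were deposited by the authors for 16 libraries as whole numbers without normalization. The submitters' processing notes name HISAT2, HTSeq, DESeq2 and mm10, and their versions, the annotation used for counting and whether strand was used are not given in the sources used here. Lines of unassigned reads were left out of the library sizes. Reads on no feature made up 7.10% to 9.44%. Of 52636 genes, 52489 are in GENCODE M21, from which coordinates, GC content and exon length were taken, and promoter sequences came from RefSeq.

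Genes kept by filterByExpr (21371) were scaled by TMM and fitted with glmQLFit and glmQLFTest in edgeR 4.0.16 (R 4.3.3), with 1 coefficient per group over all 16 libraries. Calls are adjusted p-values under 0.1 (Benjamini-Hochberg) over all genes tested. CPM used TMM library sizes. The DMI average is the mean of the DMI effects under sham and SNI. Intervals are standard errors of that fit. The chi-square per gene between replicates ran from 10.4 to 44.3, so the spread between mice exceeded counting error, and no libraries were duplicates. P-values measure the spread between mice of 1 experiment.

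Alternatives were DESeq2 1.42.0 and its size factors, upper-quartile scaling, no filter or at least 10 counts, the 8 libraries of a comparison, the replicate number as a block, removal of GC content and length trends (mgcv 1.9.3, basis size 8), the cut-offs of nominal p under 0.05 with a log2 change of 0.32 or more in size, and each library left out. The share of reads on no feature as a covariate was added after seeing the data. The procedure was tested on simulated data. Members given mouse by mouse are up to 6 called per comparison with the smallest p, or the 4 with the smallest p where fewer than 4 were called. From each other list, up to 4 called genes with the smallest p in the DMI average are named, apart from 1 that is not reported here. The members and lists were chosen with earlier results of these data known.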

Additional observations from a re-analysis of the deposited data

Results flagged for a closer look

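In 64 groups of 4 mice (14 members, the summed CPM and the median of the list, each in 4 groups), the highest or lowest value was compared with the others by Dixon's ratio at its 95% critical value. Chance gives about 1 such value in 20 groups, and 3 were found. Cathepsin A (Ctsa) was at 138 CPM in SNI-DMI replicate 2, below the other mice of that group. Cathepsin B (Ctsb) was at 1660 CPM in Sham-DMI replicate 3, above the others, and this was the library with the fewest reads. The V1 subunit Atp6v1a was at 443 CPM in SNI-DMI replicate 3, above the others, which were at 398 to 402 CPM.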

How the results depend on the processing

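After injury 12 members were called. The count was 5 with no filter on low counts, 6 with GC content and length trends removed, 3 with these removed and the replicate block, 2 with the nominal p and fold cut-off, and 2 with the share of reads on no feature as a covariate. With DMI under SNI 5 were called. The count was 8 with DESeq2, 8 with edgeR on the 8 libraries, 0 with the trends removed, 0 with that and the block, and 1 with the nominal cut-off. With DMI under sham 19 were called, and 1 with the nominal cut-off and 6 with the covariate. Here the median of 0.09 became 0.13 with the trends removed, 0.13 with that and the block, and 0.05 with the covariate (0.1327, 0.1324 and 0.05458). The median of all genes, -0.021 in the main fit, became 0.04564, 0.04478 and -0.008235 in that order. For injury under DMI the count of 1 became 0 with DESeq2 size factors, with the 8 libraries and with the trends removed and the block, 3 with DESeq2, 2 with the nominal cut-off and 2 with the covariate. Its median of 0.03 became -0.0405 with the trends removed and -0.04129 with that and the block. The median of all genes moved likewise in these 2 fits, from 0.0007 to -0.0397 and -0.03838. In the DMI average the count of 22 became 0 with the nominal cut-off and 11 with the covariate. The nominal cut-off asks for a fold that few members reach. With it 7.15%, 5.73%, 11.5%, 5.41% and 8.74% of all genes were called in these 5 comparisons in the order given, a larger share than of the members in each. The counts of all genes also fell after injury, to 5.48% with no filter, 3.94% with the trends removed, 2.33% with that and the block and 1.02% with the covariate. With DMI under SNI they were 8.88% with DESeq2 and 8.86% with the 8 libraries, and the covariate left 4.96% under sham and 11.7% in the DMI average. The cause was not tested.

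The labels do not say whether the replicate numbers pair the mice. The deviations of same-numbered libraries correlated at -0.081 to 0.18. Libraries with different numbers were not compared, so these values do not settle it. With the replicate block 8 members were called after injury, 1 with DMI under SNI, 17 with DMI under sham, 0 for injury under DMI, 20 in the DMI average and 0 for the difference between DMI effects. Of all genes, 9.85%, 0.805%, 22.2%, 0.328%, 29.1% and 0% were called in these comparisons in that order.

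Leaving out 1 library gave 3 to 15 called members and medians of 0.09856 to 0.1247 after injury, 0 to 7 and 0.03732 to 0.0765 with DMI under SNI, 15 to 21 and 0.09261 to 0.1427 with DMI under sham, 0 to 3 and 0.002282 to 0.04501 for injury under DMI, and 18 to 28 and 0.0701 to 0.1128 in the DMI average. The shares of all genes called in these comparisons, in that order, were 3.15% to 15.1%, 0% to 8.48%, 15.2% to 28.1%, 0.0784% to 3.91% and 24% to 33.4%. The difference between DMI effects had 0 called members in each such fit, with medians of -0.118 to -0.07024. Each member given mouse by mouse was followed here only in the comparisons that selected it. Of these alternative values, 708 kept direction and side of the threshold, 113 fell short of it, 6 newly passed it and none reversed. In other comparisons some directions reversed once the GC content and length trends were removed. Lamp2 went from -0.225 to 0.077 with DMI under sham, and from -0.078 to 0.105 after injury.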
